A study of Mus musculus with 12 samples.

Results

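Glycolytic enzymes and other genes that respond to low oxygen were compared among 4 stable lines of 4T1 mouse mammary carcinoma cells. The group was a list of 32 genes: 14 glycolytic enzymes, 6 transporters and regulators of glycolysis, 11 other targets of hypoxia-inducible factor (HIF), and Hif1a. A gene was measured where a probe set of the array carries its symbol and no other, and 29 of the 32 genes were, among 19937 genes with a probe set of their own. Gpi1, Gapdh and Eno1 had no such probe set and were not analysed here. Gapdh appeared only on probe sets that also name its pseudogenes. Hk1, Pkm, Bnip3 and Bnip3l had more than 1 probe set, and the brightest stood for the gene.

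The series asks which genes depend on Mkl1 (now Mrtfa), which senses actin and switches on genes together with serum response factor. The lines carry the names FL, ΔSAP and mutB1, for Mkl1 constructs, and control, with 3 arrays each, and all share the BALB/cfC3H background. The names are taken to mean the full-length protein (FL), a form without the SAP domain (ΔSAP) and a form with a mutated B1 region (mutB1). Every culture spent 48 h in DMEM with 0.03% serum before RNA isolation, and no culture was labelled as hypoxic. The design text speaks of triplicate cultures, so p-values measure the spread between cultures of 1 line. Each construct is represented by 1 stable line, and an effect of the construct and a property of the line cannot be told apart.

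HIF is a dimer of an oxygen-sensitive alpha subunit such as Hif1a and a partner, Arnt, that is not controlled by oxygen in this way. In oxygenated cells the prolyl hydroxylases Egln1 to Egln3 mark the alpha subunit for destruction. When oxygen falls, the dimer binds DNA and raises transcription of glucose transporters, most glycolytic enzymes, Pdk1, Vegfa, Adm, Egln3 and many others, so that glucose is turned into lactate and vessels are recruited. Many carcinoma cells run glycolysis fast in ample oxygen as well.

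Values are RMA expression values on the log2 scale per probe set, so a difference of 1 is a doubling, and levels are not compared between probe sets. A difference is the first line minus the second. A gene is said to have risen or fallen where its adjusted p in limma, over all 34760 probe sets, was at most 0.01. Array medians lay between 6.35 and 6.46, and a line mean under 6.35 is called low because it may be background. Arrays of 1 line correlated at 0.995 to 0.997 and arrays of different lines at 0.988 to 0.995. The Mrtfa probe set, which may read construct and host transcripts, averaged 12.08 ± 0.06 in FL, 11.92 ± 0.04 in ΔSAP, 11.29 ± 0.11 in mutB1 and 9.27 ± 0.01 in control cells (SD, n = 3 each). FL exceeded mutB1 by 0.79 in Mrtfa, and the part of this unequal level in the results was not tested.

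The keratins Krt8 and Krt18, which mark simple epithelium, averaged 13.09 and 12.71 over the 12 arrays. Of 27 markers of fibroblasts, leukocytes, endothelium, adipocytes and erythroid cells, 21 lay under the lowest array median, among them the pan-leukocyte gene Ptprc at 4.61 and the endothelial gene Pecam1 at 5.30. Per array, these 27 markers averaged 5.57 to 5.63 in FL, 5.51 to 5.60 in ΔSAP, 5.66 to 5.68 in mutB1 and 5.63 to 5.69 in control cells. The exceptions were Cd14, Cd3e, Col1a1, Col1a2, Col3a1 and Pdgfra, and Pdgfra differed among lines at 9.38 in FL, 9.74 in ΔSAP, 10.87 in mutB1 and 10.76 in control cells. The 10 epithelial markers separated the lines, with array averages of 9.19 to 9.26 in FL, 10.06 to 10.10 in ΔSAP, 8.10 to 8.15 in mutB1 and 9.09 to 9.15 in control cells. Epcam averaged 8.26, 10.14, 6.41 and 8.44 in FL, ΔSAP, mutB1 and control cells, and Esrp1, an epithelial splicing factor, 4.77, 8.96, 4.76 and 4.78. Cdh1, Cldn4, Krt7 and Krt19 took the order of the array averages, but not all 10 markers did. Krt8 and Krt18 were highest in control (13.20 and 12.88) and lowest in FL cells (12.93 and 12.55). Krt14 was highest in FL (6.82), and Cldn7, low in every line, was lowest in ΔSAP cells (5.67). The lines thus differed in epithelial markers beside every difference below, and the part of this in the results was not tested. In such bulk samples fewer cells of a type and less RNA per cell cannot be told apart.

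The 29 genes did not move as a block. Differences were mostly small, and related genes went opposite ways within a comparison. FL against mutB1 gave 8 genes that rose and 7 that fell, where 8.82% of all probe sets rose and 9% fell. Among probe sets with a single gene name these shares were 12.1% and 12.9%. Adm, Ndrg1, P4ha2, Pgk1, Pgam1, Hif1a, Slc2a1 and Ldha rose, and Aldoc, Egln3, Pdk1, Pfkp, Pfkfb4, Vegfa and Pfkfb3 fell. With the study's own filters, which add a change of at least 2-fold and a mean of at least 4, 2 genes passed, Adm and Aldoc, against 1.6% of all probe sets. With each array centred on its median the split was 3 risen to 7 fallen, and the count of risen genes was 5 without any 1 of FL arrays 1, 2 and 3 or mutB1 arrays 1 and 3. The calls of 9 genes held under every alternative: Adm, Ndrg1 and P4ha2 higher, and Aldoc, Egln3, Pdk1, Pfkp, Pfkfb4 and Vegfa lower.

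FL against ΔSAP, which shares the FL arrays with the comparison above, gave 5 genes that rose (5.73% of all probe sets) and 5 that fell (5.7%). Adm, P4ha2, Hk2, Pfkfb3 and Pfkp rose, and Aldoc, Pdk1, Bnip3, Pfkfb4 and Pfkl fell. None passed the study's filters, which 0.503% of all probe sets did, although Adm did so without FL array 1. The count of fallen genes was 2 without FL array 2, ΔSAP array 2 or ΔSAP array 3 and 3 without ΔSAP array 1. All 5 genes that rose, and Aldoc among those that fell, held under every alternative.

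FL against control gave 3 genes that rose (9.61% of all probe sets) and 8 that fell (10.4%), and Aldoc alone passed the study's filters (1.83% of all probe sets), joined by Adm without FL array 1 or control array 3. ΔSAP against control gave 1 that rose (6.96%) and 8 that fell (7.83%), with none past the filters (1.34%). The 1 that rose, Egln1, was not called without any single array of the 12, and either rescaling of the arrays left 0 risen and 8 fallen. mutB1 against control had the fewest calls, 2 risen (5.83%) and 4 fallen (6.89%), with none past the filters (1.21%). Median centring made this 1 risen and 4 fallen, as did leaving out any 1 array other than FL array 2, mutB1 array 1 or ΔSAP array 3. ΔSAP against mutB1 gave 6 risen (7.07%) and 7 fallen (8%), with none past the filters (1.42%), and 2 risen and 7 fallen after median centring. Its count of risen genes was 3 without ΔSAP array 1, ΔSAP array 3, mutB1 array 1 or mutB1 array 3. Over all 4 lines together, 17 of the 29 genes passed the F test, against 27.7% of all probe sets. The 29 genes were bright, with a median level of 10.97, and the part of brightness in these shares was not tested.

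**Figure D1:**
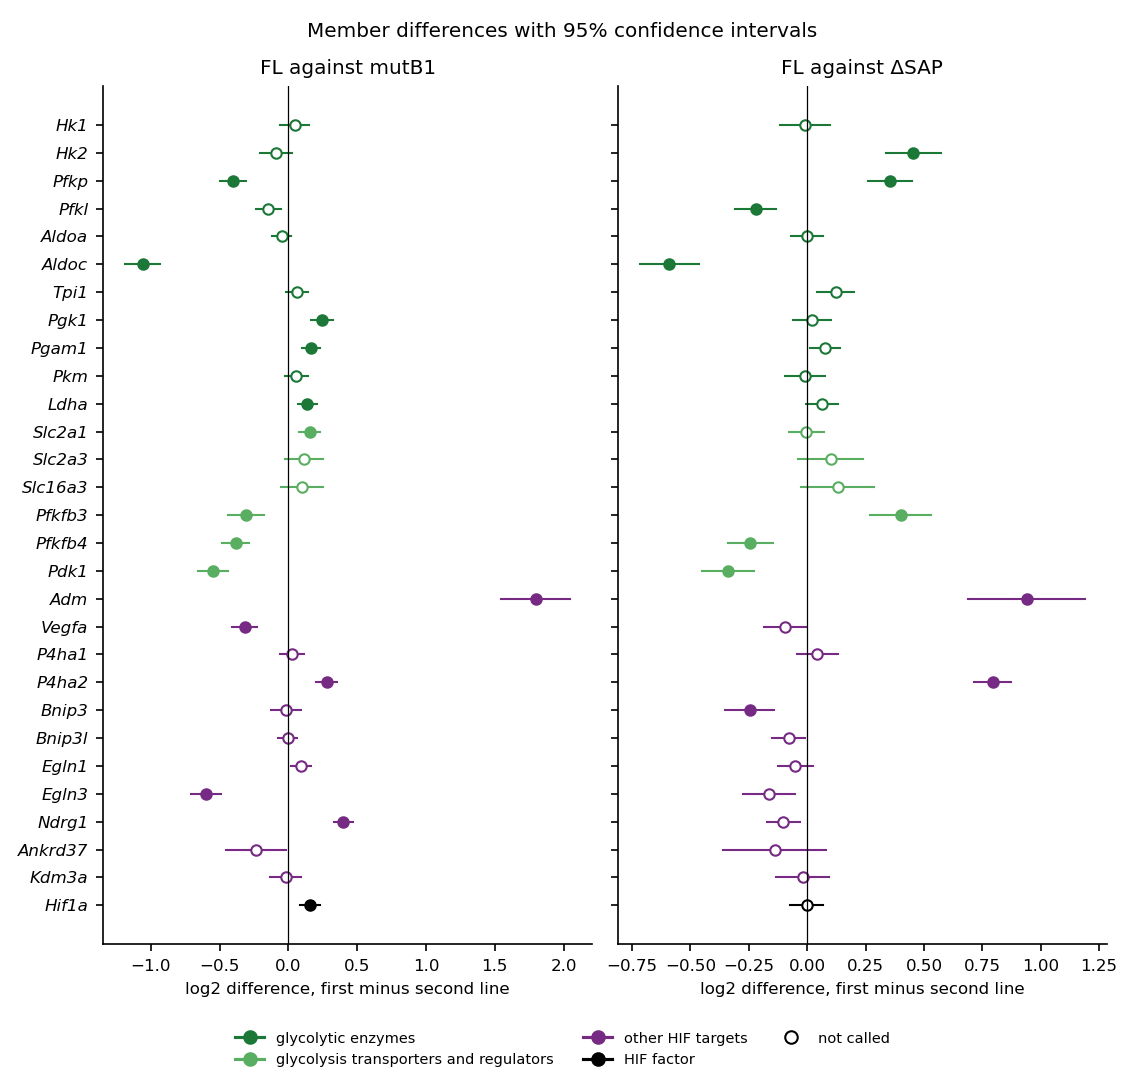
Differences of the 29 genes on the log2 scale for FL against mutB1 (left) and FL against ΔSAP (right), with 95% confidence intervals. Filled circles passed an adjusted p of 0.01 in limma and open circles did not, and colours give the class. Adm at 1.80 and Aldoc at -1.06 stand apart on the left, and Adm at 0.94, P4ha2 at 0.79 and Aldoc at -0.59 on the right.

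The HIF dimer binds a short core, and the promoters of 6 of the genes are printed with that core in capitals. The letters searched were ACGTG and GCGTG on both strands, which on the reverse strand read CACGT and CACGC, so that CACGTG counts as overlapping matches. Each window runs from 250 bases before to 50 after a transcription start of RefSeq, build GRCm38.p6, 5′ to 3′ on the gene's strand. Adm and P4ha2 are shown as the genes called higher in FL than in each other line. Of the genes lower in both FL and ΔSAP than in both mutB1 and control, Aldoc, Egln3 and Pfkp are shown and Vegfa is not. Ldha is shown as a core enzyme with many matches whose level hardly moved. The 6 genes were picked after the values were seen.
Adm (chr7:110627407-110627706, plus strand): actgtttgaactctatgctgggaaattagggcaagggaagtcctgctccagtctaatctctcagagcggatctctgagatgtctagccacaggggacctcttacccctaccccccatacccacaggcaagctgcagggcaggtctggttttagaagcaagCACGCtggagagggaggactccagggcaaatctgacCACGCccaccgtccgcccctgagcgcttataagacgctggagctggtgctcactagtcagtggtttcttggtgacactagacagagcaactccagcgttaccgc
P4ha2 (chr11:54100674-54100973, plus strand): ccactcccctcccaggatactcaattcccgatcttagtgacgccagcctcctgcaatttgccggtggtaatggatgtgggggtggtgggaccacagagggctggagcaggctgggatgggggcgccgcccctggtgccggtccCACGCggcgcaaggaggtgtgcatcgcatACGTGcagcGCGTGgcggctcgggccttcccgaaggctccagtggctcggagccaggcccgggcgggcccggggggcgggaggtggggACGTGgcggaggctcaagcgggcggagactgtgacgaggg
Aldoc (chr11:78322823-78323122, plus strand): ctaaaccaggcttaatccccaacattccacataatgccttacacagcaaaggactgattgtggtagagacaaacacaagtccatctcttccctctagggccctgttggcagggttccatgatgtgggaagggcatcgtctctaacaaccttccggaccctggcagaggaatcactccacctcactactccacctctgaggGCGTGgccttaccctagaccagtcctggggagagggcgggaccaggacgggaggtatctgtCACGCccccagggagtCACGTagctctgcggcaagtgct
Egln3 (chr12:54203825-54204124, minus strand): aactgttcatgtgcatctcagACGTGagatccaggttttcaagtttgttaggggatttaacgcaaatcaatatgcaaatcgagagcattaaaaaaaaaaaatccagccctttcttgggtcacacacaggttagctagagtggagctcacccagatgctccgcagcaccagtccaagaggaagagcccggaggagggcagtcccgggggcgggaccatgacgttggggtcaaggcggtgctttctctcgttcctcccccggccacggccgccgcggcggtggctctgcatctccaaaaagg
Pfkp (chr13:6648722-6649021, minus strand): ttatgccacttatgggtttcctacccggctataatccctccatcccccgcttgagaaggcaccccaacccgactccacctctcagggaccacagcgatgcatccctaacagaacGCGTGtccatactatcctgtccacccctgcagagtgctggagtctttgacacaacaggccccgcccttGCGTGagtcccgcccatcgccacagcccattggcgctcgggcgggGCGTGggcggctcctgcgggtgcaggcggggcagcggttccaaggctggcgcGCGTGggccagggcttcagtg
Ldha (chr7:46845554-46845853, plus strand): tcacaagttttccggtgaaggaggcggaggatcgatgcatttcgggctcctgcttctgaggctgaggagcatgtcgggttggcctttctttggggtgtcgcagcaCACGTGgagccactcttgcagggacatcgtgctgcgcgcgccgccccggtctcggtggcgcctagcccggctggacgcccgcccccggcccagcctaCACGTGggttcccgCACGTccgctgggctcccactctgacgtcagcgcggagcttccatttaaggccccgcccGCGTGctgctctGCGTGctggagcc

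Adm held 2 matches, P4ha2 4, Aldoc 3, Egln3 1, Pfkp 4 and Ldha 7 in these windows. Aldoc and Ldha each had a second window, not printed, with 1 and 2 matches. Vegfa, not printed, had 0 and 2 matches in its 2 windows. Of the 32 listed genes 29 had a window, and 27 of these, 93.1%, had a match in at least 1 window, against 46.7% of 27025 genes in the table. Counted by window, 33 of 42 windows of the listed genes matched, 78.6%, against 43.8% of all windows of the same length. The G+C content of these windows had a median of 64.0%, against 52.7% over all windows, and its part in the share was not tested. Tpi1 and Gpi1 were the genes with a window and no match. Gene lists taken up below also exceeded the 46.7% of all genes. The share was 84.6% for the further HIF pathway and hypoxia genes and 72.7% for the further glycolysis and pyruvate genes. It was 83.3% for the pentose phosphate pathway and 64.3% for the tricarboxylic acid cycle. A match describes letters only. Genes that rose, fell and hardly moved all carried matches, since Pgk1 had 2, Hif1a 3 and Pfkfb3 1 and 4 in its 2 windows.

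Among the 11 glycolytic enzymes, Aldoc showed the largest change. Aldoc is the aldolase isoform best known from brain, and it cleaves the same sugar as Aldoa. Its arrays read 10.79, 10.72 and 10.96 in FL, 11.40, 11.44 and 11.39 in ΔSAP, 11.91, 11.84 and 11.90 in mutB1 and 11.98, 11.997 and 11.98 in control cells. The FL arrays were lowest, the ΔSAP arrays next, and neither group overlapped any other line. FL lay below mutB1 by 1.06 ± 0.06 (SE), a 2.09-fold difference (limma, adjusted p = 4.02e-07), and below control by 1.16 ± 0.06, or 2.24-fold (adjusted p = 1.53e-07). FL was also below ΔSAP, at -0.59 ± 0.06 (adjusted p = 6.29e-05), and ΔSAP was below control, at -0.57 ± 0.06 (adjusted p = 4.05e-05). mutB1 and control differed by -0.10 ± 0.06 (adjusted p = 0.273).

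Pfkp, the platelet-type phosphofructokinase, which commits sugar to glycolysis, was called in all 6 comparisons. Its arrays read 10.64, 10.56 and 10.64 in FL, 10.22, 10.24 and 10.31 in ΔSAP, 10.95, 11.05 and 11.04 in mutB1 and 10.81, 10.81 and 10.84 in control cells. The 4 lines took 4 separate levels, ΔSAP lowest and mutB1 highest. ΔSAP against mutB1 gave -0.76 ± 0.04, a 1.69-fold difference (limma, adjusted p = 5.64e-07), and ΔSAP against control -0.57 ± 0.04 (adjusted p = 5.25e-06). FL was 0.40 below mutB1 and 0.36 above ΔSAP. The differences from control of FL (-0.21, adjusted p = 0.00339) and of mutB1 (0.19, adjusted p = 0.00857) were lost under 5 and 12 of 19 alternatives, with adjusted p up to 0.0165 and 0.0361. Control arrays 1, 2 and 3 were each enough to end both when left out, FL array 2 the first, and FL arrays 1 and 3, mutB1 arrays 2 and 3 and ΔSAP arrays 1 and 2 the second.

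Hk2, the inducible hexokinase that traps glucose in the cell, fell in ΔSAP against each other line. Its arrays read 10.001, 9.98 and 10.10 in FL, 9.57, 9.60 and 9.55 in ΔSAP, 10.04, 10.18 and 10.14 in mutB1 and 10.11, 10.06 and 10.20 in control cells. FL, mutB1 and control overlapped, and all ΔSAP arrays lay below them. ΔSAP against control gave -0.55 ± 0.05 and ΔSAP against mutB1 also -0.55 ± 0.05, each 1.46-fold (limma, adjusted p = 3.15e-05 and 3.16e-05). FL against ΔSAP gave 0.45 ± 0.05 (adjusted p = 0.000198).

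The other enzymes moved by at most 0.26 between any lines. Pfkl, the liver-type phosphofructokinase, averaged 11.47 ± 0.03 in FL, 11.69 ± 0.03 in ΔSAP, 11.61 ± 0.06 in mutB1 and 11.73 ± 0.03 in control cells. It fell in FL against control, at -0.26 ± 0.04 (limma, adjusted p = 0.000611), and against ΔSAP, at -0.22 ± 0.04 (adjusted p = 0.00316). The second call was lost without FL array 1 or 2 or ΔSAP array 2 or 3. Median centring and the fit of FL and ΔSAP arrays alone also ended it, with adjusted p up to 0.0239 over the alternatives. Pgk1, an ATP-yielding kinase of the lower pathway, averaged 12.15 ± 0.04 in FL, 12.13 ± 0.04 in ΔSAP, 11.91 ± 0.02 in mutB1 and 12.05 ± 0.02 in control cells. It rose against mutB1 by 0.24 in FL and 0.22 in ΔSAP (adjusted p = 0.000629 and 0.00133), calls that median centring ended at adjusted p = 0.0182 and 0.0178. Pgam1, the phosphoglycerate mutase, rose in FL against mutB1 by 0.16 (adjusted p = 0.00157), a call that median centring ended at adjusted p = 0.0581. Ldha, the subunit of lactate dehydrogenase that favours lactate, averaged 13.31 in FL, 13.25 in ΔSAP, 13.17 in mutB1 and 13.21 in control cells. Its rise of 0.14 in FL against mutB1 (adjusted p = 0.00752) was lost under 16 of 19 alternatives, among them leaving out any single array. Hk1, Aldoa, Tpi1 and Pkm, the constitutive hexokinase, main aldolase, triosephosphate isomerase and pyruvate kinase, were not called in any comparison, and their line means spanned 0.13, 0.10, 0.12 and 0.07.

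The Hk1 value needs care. Its brightest probe set is annotated only with a clone that 15 probe sets naming Rpl17 share, while a second Hk1 probe set carries RefSeq transcripts. That one averaged 10.94 ± 0.06 in FL, 11.02 ± 0.02 in ΔSAP, 10.99 ± 0.03 in mutB1 and 11.07 ± 0.04 in control cells, and Hk1 was not called through either.

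**Figure D2:**
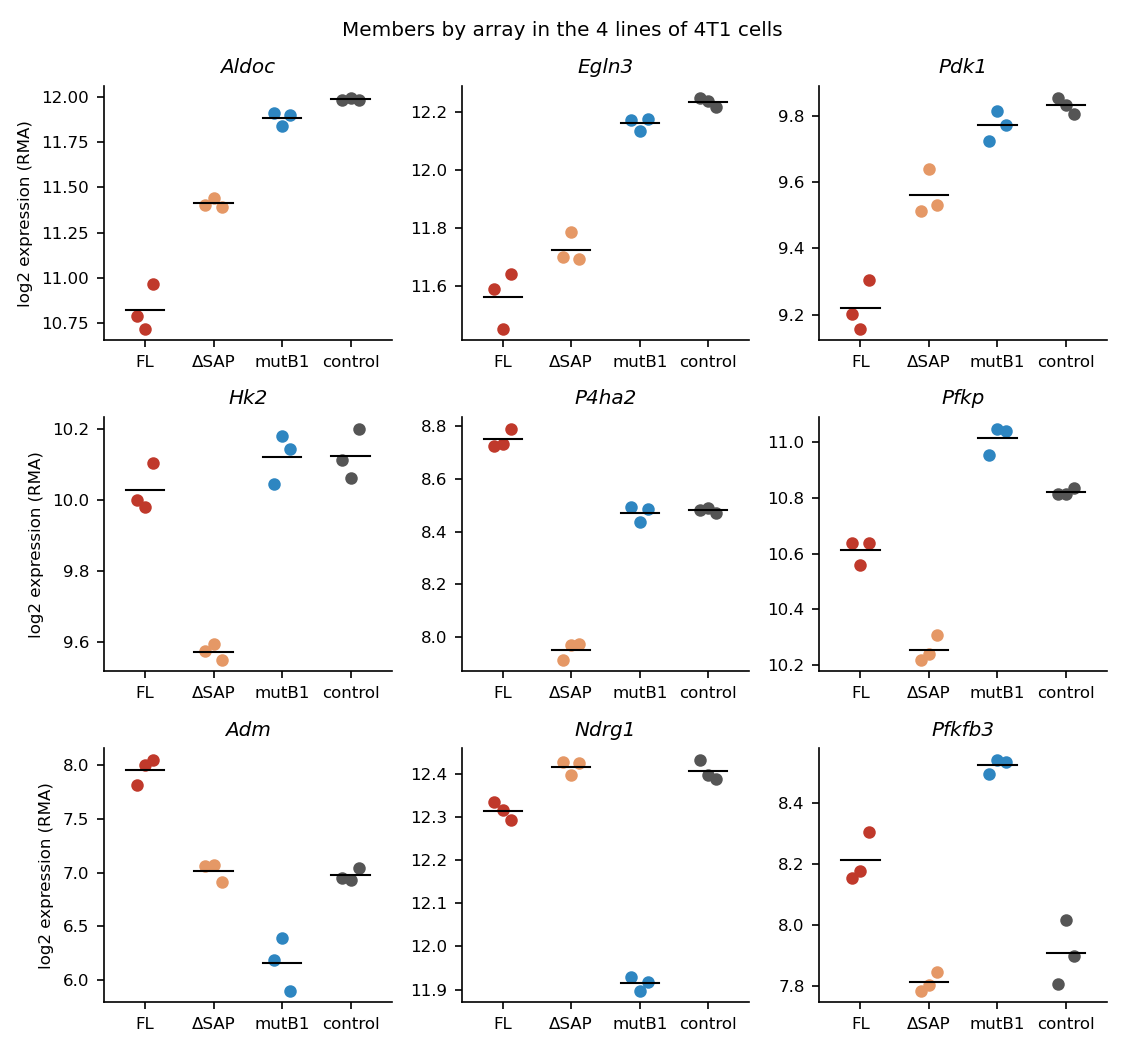
RMA log2 values of 9 genes on each of the 12 arrays, with 1 point per array, 3 arrays per line and the bar at the line mean. The vertical scales differ between panels and do not start at 0. Aldoc, Egln3 and Pdk1 are low in FL and intermediate in ΔSAP, Hk2, P4ha2 and Pfkp are lowest in ΔSAP, Adm and Ndrg1 are lowest in mutB1, and Pfkfb3 is highest in mutB1.

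Of the 6 transporters and regulators, Pfkfb3 changed most. Pfkfb3 and Pfkfb4 make and break the bisphosphate that activates phosphofructokinase, Pfkfb3 mostly making it. The Pfkfb3 arrays read 8.15, 8.18 and 8.30 in FL, 7.78, 7.80 and 7.85 in ΔSAP, 8.49, 8.54 and 8.53 in mutB1 and 7.81, 8.02 and 7.90 in control cells. mutB1 was highest and FL next, without overlap, while ΔSAP and control overlapped. ΔSAP against mutB1 gave -0.71 ± 0.06, or 1.64-fold (limma, adjusted p = 9.84e-06), and mutB1 against control 0.61 ± 0.06, or 1.53-fold (adjusted p = 3.29e-05). FL rose against ΔSAP by 0.40 (adjusted p = 0.000814) and against control by 0.30 (adjusted p = 0.00249), and fell by 0.31 against mutB1 (adjusted p = 0.00247). The call against control was lost without FL array 3, control array 1 or control array 3. It was also lost under median centring and in the fit of these lines alone, with adjusted p up to 0.0278 over the alternatives. The call against mutB1 was lost without FL array 1 or 2 or mutB1 array 2 or 3, with adjusted p up to 0.013.

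Pfkfb4 averaged 7.93 ± 0.03 in FL, 8.17 ± 0.00 in ΔSAP, 8.31 ± 0.05 in mutB1 and 8.41 ± 0.06 in control cells. Like Pfkfb3 it was lower in FL than in mutB1, but it was also lower in FL than in ΔSAP and control, where Pfkfb3 was higher. FL was below mutB1 by 0.38 and below control by 0.49 (limma, adjusted p = 8.32e-05 and 1.24e-05). FL against ΔSAP and ΔSAP against control each gave -0.24 (adjusted p = 0.00284 and 0.00218). The FL against ΔSAP call was lost without FL array 2 or any 1 ΔSAP array. It was also lost with a block for replicate number and in the fit of these lines alone, with adjusted p up to 0.0148. The ΔSAP against control call was lost only where the fit held ΔSAP and control arrays alone (adjusted p = 0.0193).

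Pdk1 inhibits pyruvate dehydrogenase and so keeps pyruvate out of the mitochondrion. Its arrays read 9.20, 9.16 and 9.30 in FL, 9.51, 9.64 and 9.53 in ΔSAP, 9.72, 9.82 and 9.77 in mutB1 and 9.85, 9.83 and 9.81 in control cells. All FL arrays were below all others, and mutB1 and control overlapped at the top. FL fell by 0.61 ± 0.05 against control, or 1.53-fold (limma, adjusted p = 6.97e-06), by 0.55 ± 0.05 against mutB1 (adjusted p = 1.88e-05) and by 0.34 ± 0.05 against ΔSAP (adjusted p = 0.000891, and 0.0176 where the fit held these lines alone). ΔSAP fell by 0.27 against control (adjusted p = 0.00289), a call lost without ΔSAP array 1 or 3 or control array 1 or 2. It was also lost in the fit of these lines alone, with adjusted p up to 0.0162 over the alternatives.

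Slc2a1, the main glucose transporter of carcinoma cells, averaged 12.56 ± 0.02 in FL, 12.56 ± 0.04 in ΔSAP, 12.40 ± 0.01 in mutB1 and 12.45 ± 0.03 in control cells. It rose against mutB1 by 0.16 in both FL and ΔSAP (limma, adjusted p = 0.00634 and 0.00641), calls lost under 12 and 14 of 19 alternatives, with adjusted p up to 0.0611 and 0.0499. Leaving out any 1 FL or mutB1 array, or control array 1 or 2, ended both, and ΔSAP array 1 or 3 also the second. Slc2a3, the high-affinity glucose transporter, was low in all 4 lines (5.45 to 5.57). Slc16a3, the lactate exporter Mct4, was low in ΔSAP and mutB1 (6.26 and 6.29), with 6.39 in FL and 6.4004 in control cells. Neither was called.

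Among the 11 other HIF targets, Adm, which encodes the vasodilator peptide adrenomedullin, covered the widest range of all 29 genes. Its arrays read 7.81, 8.004 and 8.05 in FL, 7.07, 7.07 and 6.92 in ΔSAP, 6.19, 6.39 and 5.90 in mutB1 and 6.95, 6.93 and 7.05 in control cells. FL was highest on all arrays and mutB1 lowest, with ΔSAP and control overlapping between them. FL exceeded mutB1 by 1.80 ± 0.11, or 3.48-fold (limma, adjusted p = 1.15e-06), control by 0.98 ± 0.11, or 1.98-fold (adjusted p = 7.21e-05), and ΔSAP by 0.94 ± 0.11, or 1.92-fold (adjusted p = 0.000243). mutB1 fell below control by 0.82 ± 0.11 (adjusted p = 0.000444), and its mean of 6.16 is low, so the differences against it are as measured and may be too small.

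P4ha2 is a catalytic subunit of the prolyl hydroxylase that stabilises collagen. Its arrays read 8.72, 8.73 and 8.79 in FL, 7.91, 7.97 and 7.98 in ΔSAP, 8.49, 8.44 and 8.49 in mutB1 and 8.48, 8.49 and 8.47 in control cells. FL was above and ΔSAP below mutB1 and control, which overlapped. FL against ΔSAP gave 0.79 ± 0.04, or 1.73-fold (limma, adjusted p = 4.62e-07), FL against control 0.27 ± 0.04 (adjusted p = 0.000198) and ΔSAP against control -0.53 ± 0.04 (adjusted p = 2.43e-06).

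Egln3, the strongly hypoxia-inducible HIF prolyl hydroxylase, followed Aldoc in its order of lines. Its arrays read 11.59, 11.45 and 11.64 in FL, 11.70, 11.79 and 11.69 in ΔSAP, 12.17, 12.13 and 12.17 in mutB1 and 12.25, 12.24 and 12.22 in control cells. All FL and ΔSAP arrays were below all mutB1 and control arrays. FL fell against control by 0.67 ± 0.05, or 1.60-fold (limma, adjusted p = 3.29e-06), and against mutB1 by 0.60 ± 0.05 (adjusted p = 9.95e-06). ΔSAP fell against control by 0.51 ± 0.05 (adjusted p = 3.96e-05) and against mutB1 by 0.44 ± 0.05 (adjusted p = 0.000118). FL and ΔSAP differed by -0.16 (adjusted p = 0.0475), which was not called. Vegfa, the vessel growth factor, averaged 10.52 ± 0.02 in FL, 10.62 ± 0.07 in ΔSAP, 10.84 ± 0.03 in mutB1 and 10.85 ± 0.02 in control cells. FL was below control by 0.33 and below mutB1 by 0.32 (adjusted p = 0.000124 and 0.0002). The lower Vegfa in ΔSAP than in control (-0.23, adjusted p = 0.00185) was lost without control array 1, and that against mutB1 (-0.22, adjusted p = 0.00262) without mutB1 array 1, the highest adjusted p over the alternatives being 0.0254 and 0.0337. Both calls were also lost in fits of the lines compared alone.

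Ndrg1, a stress-responsive gene that is widely used as a hypoxia marker, was lower in mutB1 than in each other line. Its arrays read 12.33, 12.32 and 12.29 in FL, 12.43, 12.40 and 12.42 in ΔSAP, 11.93, 11.90 and 11.92 in mutB1 and 12.43, 12.40 and 12.39 in control cells. No mutB1 array reached any array of another line. mutB1 fell by 0.49 ± 0.03 against control, or 1.41-fold (limma, adjusted p = 1.61e-06), and FL and ΔSAP exceeded mutB1 by 0.40 and 0.50 (adjusted p = 6.14e-06 and 1.34e-06).

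Bnip3 and Bnip3l encode mitochondrial proteins that promote mitophagy. Bnip3 averaged 10.51 ± 0.09 in FL, 10.76 ± 0.03 in ΔSAP, 10.53 ± 0.03 in mutB1 and 10.84 ± 0.03 in control cells, and FL and mutB1 fell against control by 0.33 and 0.31 (limma, adjusted p = 0.000402 and 0.000954). A second Bnip3 probe set averaged 9.94 ± 0.15, 10.16 ± 0.03, 10.04 ± 0.07 and 10.31 ± 0.03 in FL, ΔSAP, mutB1 and control cells and was called for FL against control only. The differences of Bnip3 from ΔSAP, -0.25 in FL and 0.23 for ΔSAP against mutB1, were lost under the mean of both probe sets, and also without any 1 ΔSAP array, without FL array 2 for the first and without any 1 mutB1 array for the second. Their adjusted p, 0.00463 and 0.00564, reached 0.0434 and 0.0518 over the alternatives. Both were also lost with a block for replicate number and in fits of the lines compared alone, and the second under median centring. Egln1, the main HIF prolyl hydroxylase, averaged 10.68 in FL, 10.73 in ΔSAP, 10.59 in mutB1 and 10.58 in control cells, and only ΔSAP against control was called, at 0.15 (adjusted p = 0.00841, up to 0.0494 over the alternatives). Not called in any comparison were P4ha1, the sister subunit of P4ha2, Bnip3l, the histone demethylase Kdm3a and the ankyrin-repeat gene Ankrd37, with line means that spanned 0.16, 0.10, 0.17 and 0.24.

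Hif1a, the oxygen-sensitive subunit itself, was lower in mutB1. Its arrays read 11.87, 11.89 and 11.87 in FL, 11.88, 11.88 and 11.89 in ΔSAP, 11.70, 11.76 and 11.70 in mutB1 and 11.92, 11.96 and 11.94 in control cells. mutB1 did not overlap any other line, and FL and ΔSAP lay within 0.06 of control. mutB1 fell by 0.22 ± 0.03 against control, or 1.16-fold (limma, adjusted p = 0.000665), a call that was lost under 1 of 19 alternatives, the fit of these lines alone (adjusted p = 0.0165). FL and ΔSAP each exceeded mutB1 by 0.16 (adjusted p = 0.00403 and 0.00433), and each call was lost under 8 alternatives, among them median centring (adjusted p up to 0.0968 and 0.046). Without mutB1 array 1 or 3 both were lost, as was the first without any 1 FL array and the second without any 1 ΔSAP array. HIF is controlled mainly through the stability of this protein, which the arrays do not measure.

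**Figure D3:**
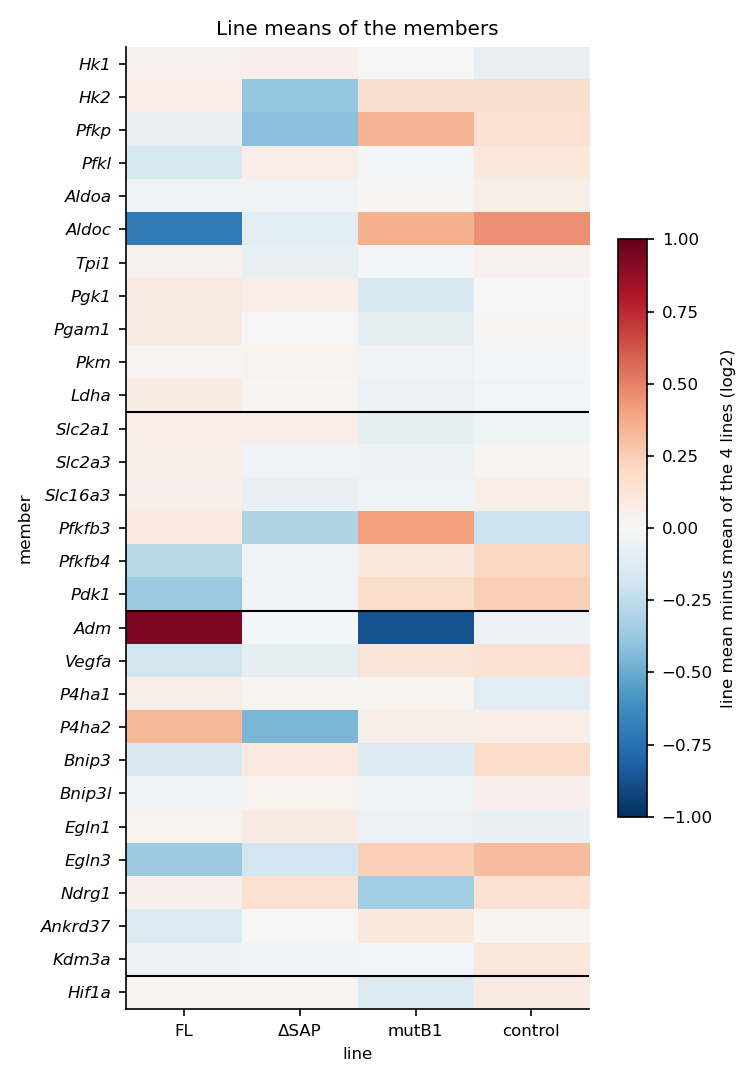
Line means of the 29 genes minus the mean of the 4 lines, on the log2 scale, with FL, ΔSAP, mutB1 and control from left to right and lines between glycolytic enzymes, transporters and regulators, other HIF targets and Hif1a. Red is above and blue below the gene's own mean. Most enzyme rows are pale, while Aldoc and Adm are deeply coloured.

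Set side by side, the 11 enzymes and the 11 other HIF targets had the same counts in FL against mutB1, 3 risen and 2 fallen each. This equality did not hold after median centring, which ended all 3 rises of enzymes (Pgk1, Pgam1 and Ldha), while all 5 calls of the other targets held under every alternative. The enzymes had 2 risen and 2 fallen in FL against ΔSAP, 0 and 3 in FL against control, 1 and 0 in mutB1 against control, 0 and 3 in ΔSAP against control and 1 and 3 in ΔSAP against mutB1. The other targets had 2 risen and 1 fallen, 2 and 3, 0 and 3, 1 and 3, and 3 and 3 in the same comparisons. Of probe sets with a single gene name, 8.37% rose and 8.35% fell in FL against ΔSAP and 12.6% and 15% in FL against control. The shares were 8.34% and 10.4% in mutB1 against control, 9.38% and 11.7% in ΔSAP against control and 10% and 11.6% in ΔSAP against mutB1. A count of 1 in 11, or 9.09%, is near several of these shares. In FL against mutB1 the median differences were 0.05 for the enzymes and -0.01 for the other targets, with -0.0039 over all probe sets. The enzyme median is the value of Hk1 by its brightest probe set, which needs care. By the RefSeq-annotated probe set Hk1 was lower in FL (10.94) than in mutB1 (10.99), so the sign of this median depends on the probe set. The median size of the difference, sign ignored, was 0.14 for the enzymes and 0.24 for the other targets, against 0.12 over all probe sets. In every other comparison the enzymes had a smaller median size than all probe sets, such as 0.08 against 0.10 in FL against ΔSAP. The other targets were smaller than all probe sets in mutB1 against control (0.089 against 0.104) and ΔSAP against control (0.1175 against 0.1202). They were larger in FL against control (0.17 against 0.12) and ΔSAP against mutB1 (0.22 against 0.12), and near equal in FL against ΔSAP. Over the 4 lines the range of line means had a median of 0.16 for the enzymes, 0.32 for the transporters and regulators and 0.33 for the other targets. The classes also differed in brightness, with median levels of 12.21, 8.16 and 10.66 in the same order, and its part in these ranges was not tested. In each of the 2 classes of 11, 7 genes were called in at least 1 pair of lines, and 31.7% of all probe sets were. That share was not taken over probe sets with a single gene name. These are descriptions, with no test between the classes.

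The genes fell into several orders of lines. Aldoc, Egln3, Vegfa and Pfkp were lower in both FL and ΔSAP than in both mutB1 and control, an order that 2.36% of all probe sets showed. Hk2, P4ha2 and Pfkp were lower in ΔSAP than in each other line (1.01% of all probe sets). Adm, Ndrg1 and Hif1a were lower in mutB1 than in each other line (2.28%), and Pfkp and Pfkfb3 higher there (1.81%). Aldoc, Pdk1 and Pfkfb4 were lower in FL than in each other line (2.70%), and Adm and P4ha2 higher there (2.47%). Bnip3 alone was lower in both FL and mutB1 than in both ΔSAP and control (0.656%), by its brightest probe set only. The shares are over all probe sets, and no share over probe sets with a single gene name was taken. Calls were commoner among the latter, such as 12.1% risen against 8.82% in FL against mutB1. These orders were set after the values were seen and get no test of their own. Some calls behind the orders of Bnip3, Hif1a, Pfkp, Pfkfb3, Pfkfb4, Pdk1 and Vegfa were lost under alternatives, as given above.

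Several related genes with the same reaction moved apart. For 7 pairs the ratio of 1 gene to its relative was taken within each array and tested in the same limma fit, a comparison added after the values were seen. All pairs of relatives with both genes above the low level were taken, so Slc2a1 and Slc2a3 were left out, and Hk1 was read through its RefSeq-annotated probe set. Of 42 tests 26 passed and 23 passed under every alternative. The ratios reuse the arrays and genes called above, so they describe those calls again and are no separate evidence. No share over other gene pairs was taken. Aldoc over Aldoa fell by 1.07 ± 0.06 in FL against control and by 0.48 ± 0.06 in ΔSAP against control (adjusted p = 2.81e-07 and 0.00014). Hk2 over Hk1 fell by 0.50 ± 0.05 in ΔSAP against control (adjusted p = 2.34e-05), and FL and control differed by 0.03 ± 0.05 in this ratio (adjusted p = 0.687). Pfkp over Pfkl showed the widest gap between ΔSAP and mutB1, -0.83 ± 0.05 (adjusted p = 1.61e-06). Pfkfb4 over Pfkfb3 fell against control by 0.79 ± 0.07 in FL and by 0.72 ± 0.07 in mutB1 (adjusted p = 1.2e-05 and 4.26e-05). P4ha2 over P4ha1 fell by 0.65 ± 0.04 in ΔSAP against control (adjusted p = 1.99e-06), and Egln3 over Egln1 by 0.77 ± 0.05 in FL and 0.66 ± 0.05 in ΔSAP against control (adjusted p = 8.94e-07 and 4.64e-06). Bnip3 over Bnip3l passed only in FL against control, at -0.23 ± 0.05 (adjusted p = 0.00761, up to 0.0329 over the alternatives), and held under only 6 of 19 alternatives.

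**Figure D4:**
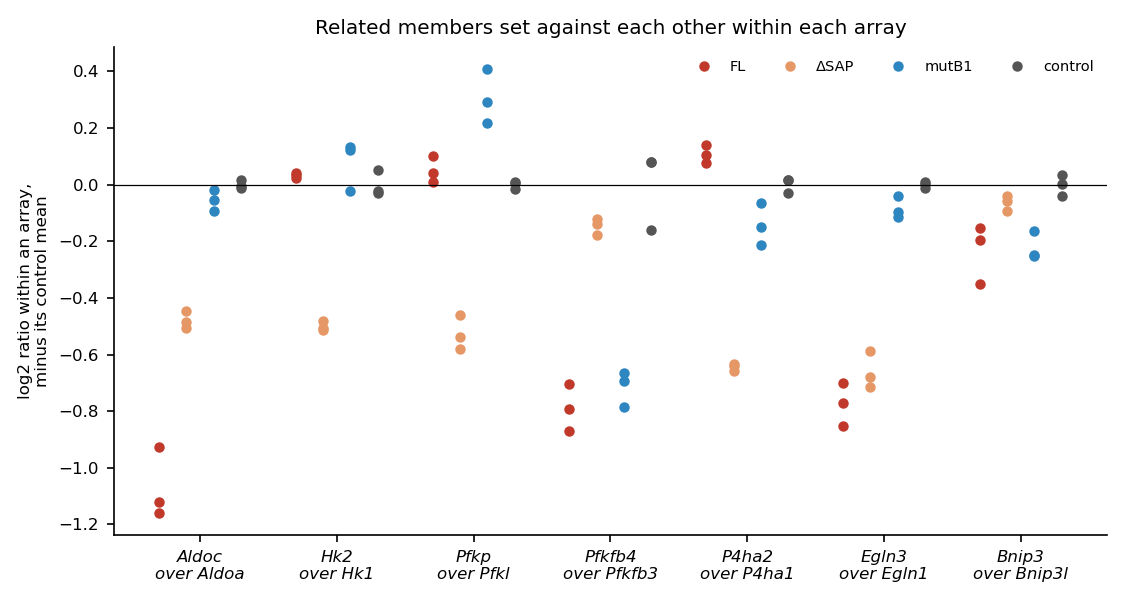
Log2 ratio of 7 pairs of related genes within each array, minus the mean of that ratio in control arrays, with 1 point per array in FL, ΔSAP, mutB1 and control order. Aldoc over Aldoa drops in FL and less in ΔSAP, Hk2 over Hk1, Pfkp over Pfkl and P4ha2 over P4ha1 are lowest in ΔSAP, and Egln3 over Egln1 drops in FL and ΔSAP.

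Further genes of these pathways, from lists beyond the 32, varied as well. In FL, 6 of 36 further glycolysis and pyruvate genes rose and 10 fell relative to mutB1, while 6 rose and 5 fell relative to ΔSAP. These are 16.7% risen and 27.8% fallen against mutB1, where 12.1% and 12.9% of probe sets with a single gene name were, and 16.7% and 13.9% against ΔSAP, where 8.37% and 8.35% were. Slc2a6, a lysosome-associated hexose transporter, averaged 9.16 ± 0.03 in FL, 8.50 ± 0.03 in ΔSAP, 10.32 ± 0.04 in mutB1 and 8.77 ± 0.05 in control cells, and mutB1 exceeded control by 1.55. Pdk2, a sister kinase of Pdk1, averaged 8.25 ± 0.15 in FL, 8.45 ± 0.16 in ΔSAP, 9.00 ± 0.06 in mutB1 and 9.57 ± 0.06 in control cells, so that both Pdk genes had their lowest mean in FL, although Pdk2 was not called between FL and ΔSAP. Ldhb, the subunit of lactate dehydrogenase that favours pyruvate, fell against control by 0.95 in FL and 0.97 in mutB1, and ΔSAP differed from control by -0.11, which was not called. Ldhd, the D-lactate dehydrogenase, fell against control in all 3 construct lines, by 0.65 in FL, 0.91 in ΔSAP and 0.25 in mutB1. Of the enolases, Eno3, best known from muscle, rose in FL against each other line, by 0.46 to 0.67, and Eno2 fell in ΔSAP by 0.66 against control.

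In FL, 13 of 48 further HIF pathway and hypoxia genes rose and 10 fell relative to mutB1, while 9 rose and 9 fell relative to ΔSAP. The shares were 27.1% risen and 20.8% fallen against mutB1, beside 12.1% and 12.9% of probe sets with a single gene name, and 18.8% each against ΔSAP, beside 8.37% and 8.35%. The largest range belonged to Car9, the tumour carbonic anhydrase and a classical HIF target, which averaged 7.54 ± 0.13 in FL, 8.83 ± 0.05 in ΔSAP, 6.20 ± 0.08 in mutB1 and 7.29 ± 0.07 in control cells. ΔSAP exceeded mutB1 by 2.63 and control by 1.54, while the mutB1 mean is low. Car12, its relative, rose in FL against each other line, by 1.498 against mutB1, 0.68 against ΔSAP and 0.88 against control. Angptl4, an inhibitor of lipoprotein lipase, and Stc2, a secreted glycoprotein, rose in FL against control by 1.45 each and in ΔSAP by 0.81 and 0.66. Stc1, the relative of Stc2, was highest in mutB1, by 2.04 over control, and FL was below mutB1 by 1.35. Pgf, a placental growth factor related to Vegfa, fell in all 3 construct lines against control, by 0.88 in FL, 1.00 in ΔSAP and 1.36 in mutB1. Car9, Car12, Stc1 and Stc2 thus did not take 1 order of lines, nor did Pgf and Vegfa.

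The pentose phosphate pathway, which branches from the first sugar phosphate, had 3 of 11 genes risen and 5 fallen in FL against mutB1, and 1 risen and 0 fallen in FL against ΔSAP. The shares against mutB1 were 27.3% and 45.5%, beside 12.1% and 12.9% of probe sets with a single gene name, and the 9.09% risen against ΔSAP was near the 8.37% of those probe sets. The risen genes against mutB1 were Rbks, Rpia and Prps1 (0.46, 0.40 and 0.29), and H6pd, Prps2 and Pgls fell, by 0.31, 0.35 and 0.28. In the tricarboxylic acid cycle, which burns the pyruvate that Pdk1 keeps out, FL had 1 of 16 genes risen and 4 fallen relative to mutB1, and 3 risen and 0 fallen relative to ΔSAP. The 6.25% risen against mutB1 was below the 12.1% of probe sets with a single gene name, the 25% fallen stood beside 12.9%, and the 18.8% risen against ΔSAP beside 8.37%. Suclg2, Suclg1 and Ogdh rose against ΔSAP by 0.40, 0.33 and 0.21, Idh3a rose against control by 0.39, and Idh2 and Fh1 fell against mutB1 by 0.30 and 0.19. No gene of these last lists passed the 2-fold filter in any comparison.

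**Figure D5:**
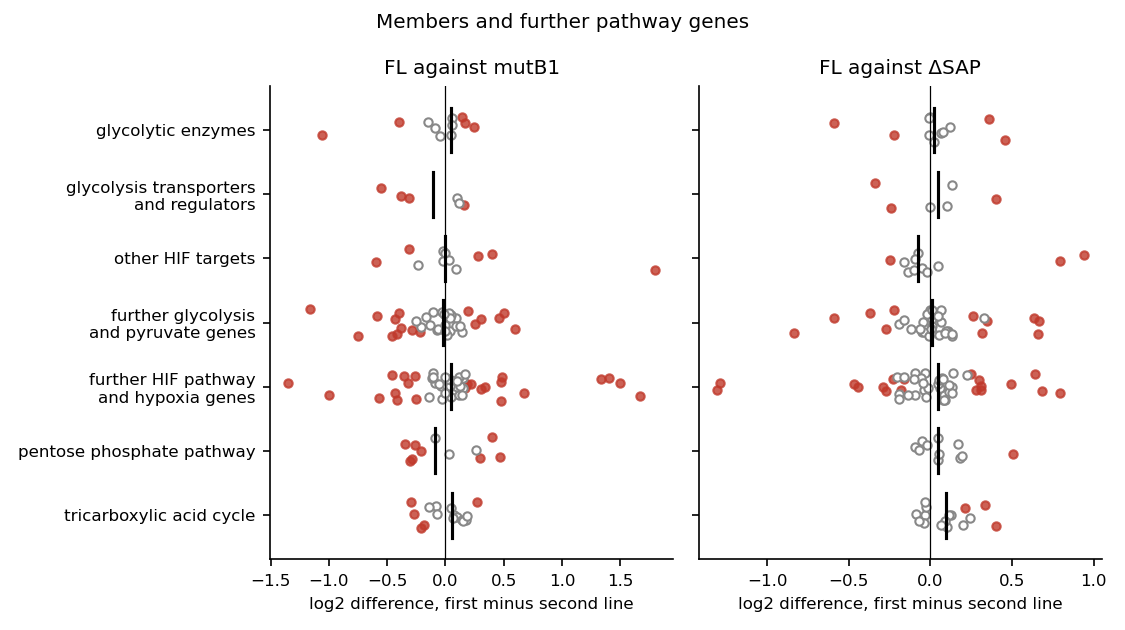
Differences on the log2 scale of every measured gene in 7 lists, for FL against mutB1 (left) and FL against ΔSAP (right). Each circle is 1 gene, red where limma's adjusted p was at most 0.01 and open otherwise, and the black bar is the median of the list. Medians lie between -0.11 and 0.10 in the 7 lists, and the further HIF and hypoxia genes spread most, from -1.35 to 1.67 on the left.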

How the data were processed

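Expression was measured in 12 samples of 4T1 cells on Affymetrix Mouse Gene 1.0 ST arrays. The authors deposited log2 values made with RMA in the affy package (Bioconductor 2.4, per the design text in the labels; R 2.10.0, per the submitters' processing notes). RMA corrects background, equalises array distributions and summarises probes, and it gives no detection call. Batches, scan order and build were not given in the sources used here. The number of arrays, 3 per line, limits the precision.

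Of 34760 probe sets, the platform annotation gave 21640 a single symbol, 1321 several and 11799 none. Symbols were updated through Entrez identifiers with RefSeq (GRCm38.p6), which matched 21553 and left 87 as annotated. A gene is read through its brightest single-symbol probe set. All 12 arrays and 4 line means were fitted together with limma 3.58.1 in R 4.3.3 (lmFit, eBayes), with p-values adjusted over every probe set (Benjamini-Hochberg), and the script was tested on simulated data. Members, lists and classes were chosen with earlier results of these data known. Every member is named. By rule the members past the study's filters or with the largest difference of their class have a value on every array; the others given by array (Pfkp, Hk2, Pdk1, P4ha2, Egln3, Ndrg1) were chosen after their values were seen. Of each further list, at most 6 called genes with the largest differences are named.

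Alternatives were another scaling, a filter on the mean, a variance trend, fits of 2 lines only, all probe sets of a gene, a replicate block and leaving out each array. Same-numbered arrays of different lines did not deviate together: their deviations correlated at -0.205 to 0.168, with 2 of 18 pairs over 0.1.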

Additional observations from a re-analysis of the deposited data

How the results depend on the processing

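Of 64 member differences called, none reversed and 41 held under all of them, the smallest of size 0.26, and the largest lost was 0.34. The following counts of members moved by more than 1.5 times, and the cause was not tested. Median centring gave 3 risen in FL against mutB1, 1 in mutB1 against control, 0 in ΔSAP against control and 2 in ΔSAP against mutB1. Further quantile normalization gave 0 risen in ΔSAP against control. A filter at a mean of 6 gave 5 risen in FL against control. A variance trend gave 7 risen in FL against control, 7 fallen in mutB1 against control and 2 risen in ΔSAP against control. Fits of only the 2 lines compared gave 4 risen in FL against mutB1, 1 fallen in FL against ΔSAP, 1 risen in mutB1 against control, 0 risen and 5 fallen in ΔSAP against control and 2 risen in ΔSAP against mutB1.

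With the replicate block, which the pairing check did not bear out, there were 5 risen in FL against mutB1, 3 fallen in FL against ΔSAP, 1 risen in mutB1 against control, 0 risen in ΔSAP against control and 3 risen in ΔSAP against mutB1, and the block moved no other count by over 1.5 times.

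With 1 array left out at a time, the risen members numbered 5 to 7 in FL against mutB1, 5 to 5 in FL against ΔSAP, 2 to 4 in FL against control, 1 to 2 in mutB1 against control, 0 to 0 in ΔSAP against control and 3 to 6 in ΔSAP against mutB1. The fallen members numbered 6 to 7, 2 to 5, 7 to 8, 4 to 4, 6 to 8 and 6 to 8 in the same order. Past the study's filters there were 0 to 1 in FL against ΔSAP and 1 to 2 in FL against control, and the F test passed 14 to 16. Exchanging the Hk1 probe set, chosen after seeing the data, changed no count, although the differences of Hk1 from control, called through neither probe set, changed sign (FL against control 0.12 and -0.13). Slc2a3 and Slc16a3 lie near the low end of the scale, where signal may be background.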
